A study of Mus musculus with 4 samples.

Results

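Tsc22d3, the period genes Per1, Per2 and Per3, and Sat1 were followed across 82 sorted mouse brain cells. They are 5 of the 15305 gene rows of the count table, chosen by name because earlier summaries of the same cells had shown Tsc22d3, Per3 and Sat1 high in a small set of cells. The contrasts between cell classes given below are therefore a description of the values that led to the choice, and none of them is tested for these genes. All 5 rows were present, and 31 cells had 10 or more counts of at least 1 of them.

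Glucocorticoids act through a nuclear receptor that leaves its chaperone complex on binding the hormone, enters the nucleus and binds DNA. Tsc22d3, also called Gilz, is a widely used readout of that receptor. Per1 is also induced by it. The period proteins are the repressor arm of the circadian clock, in which CLOCK and its partner drive period and cryptochrome genes through E-box elements, and D-box elements bound by DBP, TEF and HLF add a further input. Sat1 encodes the acetyltransferase that starts the breakdown of spermidine and spermine. Astrocytes are among the brain cells that respond to glucocorticoids.

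The animals were Penk-Cre Ai9 mice, whose cells keep the red reporter tdTomato once Penk has driven Cre in them. The labels give the genotype of each sample as WT, and no age or treatment. The marked cells need not still express Penk. Cells of dissociated subventricular zone and striatum were sorted one per well, without cells positive for CD11b (a myeloid surface protein) in dataset A, and with all reporter-positive cells in dataset B. For each dataset the labels list neuroblasts and quiescent neural stem cells as samples, and the columns do not say which cell belongs to which, so cells were classed by counts. The Sox11 class (Sox11 at 10 or more counts, Enpp2 under 1% of the counts) held 41 cells, 16 in dataset A and 25 in dataset B. The Enpp2-rich class (Enpp2 at 1% or more, Sox11 under 10 counts) held 30 cells, 14 and 16. The rest were 9 cells of dataset A, and 2 cells of dataset A met both rules and are given apart. Just outside the cutoffs lay F12 with 7 Sox11 counts and H6 with 0.999% Enpp2. Just inside lay G7 with 20 Sox11 counts and H4 of plate P1 with 1.25% Enpp2.

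Totals per cell ran from 530630 to 7765650 counts in dataset A, all on 1 plate, and from 1235278 to 3339591 in dataset B, on 4 plates. Of 20 neuroblast markers, Sox11-class cells held a median of 13.5 in dataset A and 16 in dataset B, against 1 in the Enpp2-rich class of either dataset. Of 14 choroid plexus markers, Enpp2-rich cells held a median of 10 and 8.5. The labels give 1 sort gate per dataset and no number of sorts or animals, so each dataset counts as 1 sample. P-values are given only for pools of cells and cover the spread between the 2 datasets. The 9 rest cells did not form 1 kind of cell. Of them, 5 held 11 to 15 of the 17 astroglial and quiescent stem cell markers in the table. C4 was led by Ighm and Cd74, E8 by genes including Il2rg and Fermt3, F12 by Mbp and Mobp, and G1 by Rnf185 and Atp8a1. G1 held 4 astroglial markers, a number also reached in Enpp2-rich cells of dataset A (1 to 4).

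Some wells of dataset A held the same rows at a steady ratio. The reads themselves were not compared. Among rows at 200 or more counts in a well and at 10 or more in at most 4 cells, a median of 1.33% recurred in another well over 6075 ordered pairs of wells. Of the 35 such rows of G8, all 35 recurred in G9 at a median ratio of 0.694, and 30 recurred in H6 at 0.0559. In E10, 15 of the 35 recurred at 0.0191. Per1 had ratios of 0.542 in G9 and 0.0462 in H6 to its count in G8, and Sat1 had 0.635 and 0.0427. The Per1 and Sat1 counts of G8, G9 and H6 thus kept nearly the ratios of the other shared rows. Per1 is itself among the 35, so their medians include it. Sat1, found in more cells, is not. Both genes are counted below with and without G9, H6 and E10. Which well is the source was not settled, since 28 of 39 such rows of G9 also recurred in G8, at a median ratio of 1.40. G9, with 4197 genes detected, also held 79 of 89 such rows of G11 at a median ratio of 0.0401, 55 of 91 of E11 at 0.0119 and 17 of 31 of E9 at 0.00858, and the ratios of the rows spread more widely there than for G8. A further Sox11-class well, G7, was led by the myeloid genes Fcer1g, Lyz2 and Tyrobp and held 5 of 12 microglia markers. Among the 6 cells with 11 or more astroglial markers, described below, 9.65% to 26.4% of such rows recurred between wells, and 0 of 30 pairs passed 50% at a steady ratio.

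**Figure D1:**
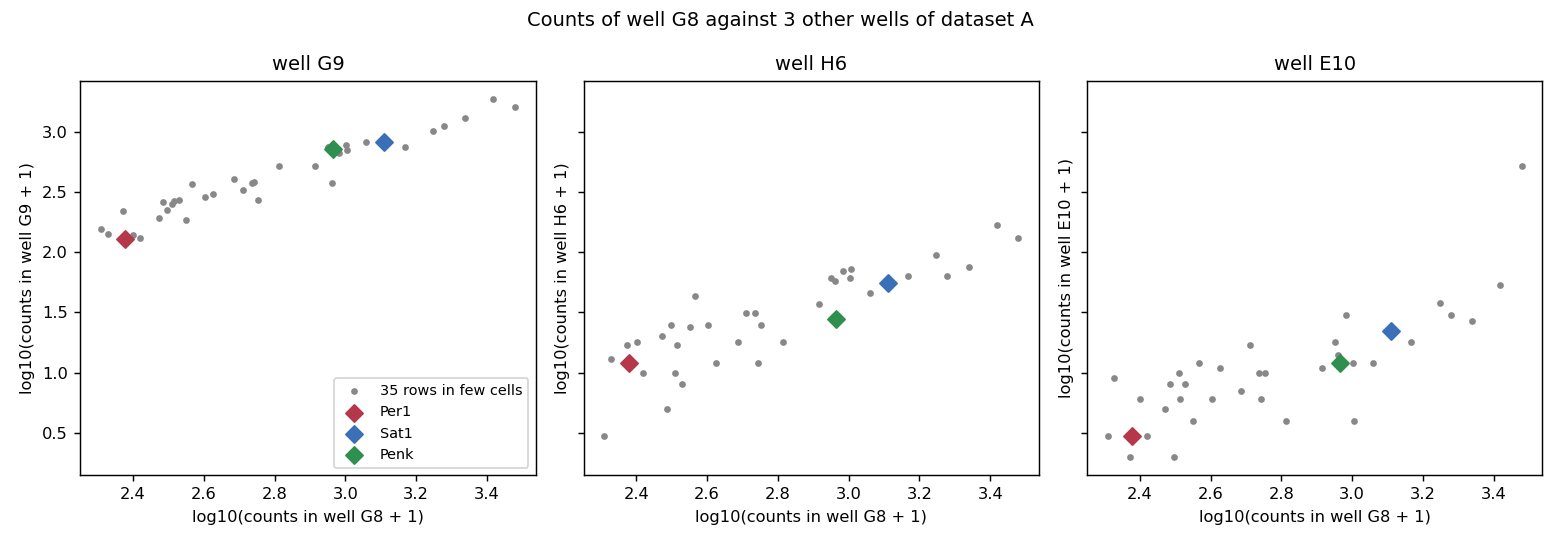
Counts in well G8 (x axis, log10 of counts + 1) against counts in wells G9, H6 and E10 (y axes, same scale) of dataset A, for the 35 rows at 200 or more counts in G8 that few cells hold (grey), with Per1, Sat1 and Penk as diamonds. Per1 and Sat1 lie within the band of the other rows, at 0.542 and 0.635 of the G8 count in G9. Per1 meets the same rule and is among the 35.

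Promoter windows were read to show which of these genes carry letters of the elements named above close to a start site. RefSeq (GRCm38.p6) gave windows for 4 of the 5 genes, from 250 bases before to 50 after a start: 3 for Tsc22d3, 2 for Per1 and 1 each for Per3 and Sat1. Per2 is named only. The letters searched, on both strands, were the E-box CACGTG, the D-box TTATGNAA, the receptor hexamer AGAACA and the full palindrome AGAACANNNTGTTCT, which contains the hexamer. The E-box letters occur in 7.15% of all 32851 windows of this length, the D-box in 3.38%, the hexamer in 19.0% and the palindrome in 3 windows. The 4 windows with a match are shown as the 250 bases before the start, 5′ to 3′ on the gene's strand, with the matched letters in capitals.
Tsc22d3, minus strand, chrX:140600523-140600772: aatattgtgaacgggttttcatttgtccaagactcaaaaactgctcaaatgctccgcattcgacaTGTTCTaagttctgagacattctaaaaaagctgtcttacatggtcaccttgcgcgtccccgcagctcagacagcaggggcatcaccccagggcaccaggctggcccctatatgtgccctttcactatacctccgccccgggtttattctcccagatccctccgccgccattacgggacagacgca
Per1, plus strand, chr11:69098699-69098948: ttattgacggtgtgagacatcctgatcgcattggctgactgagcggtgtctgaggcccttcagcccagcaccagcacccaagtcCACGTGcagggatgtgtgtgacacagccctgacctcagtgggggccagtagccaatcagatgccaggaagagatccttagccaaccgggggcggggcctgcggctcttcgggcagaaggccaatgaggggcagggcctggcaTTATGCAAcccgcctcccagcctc
Per3, minus strand, chr4:151044666-151044915: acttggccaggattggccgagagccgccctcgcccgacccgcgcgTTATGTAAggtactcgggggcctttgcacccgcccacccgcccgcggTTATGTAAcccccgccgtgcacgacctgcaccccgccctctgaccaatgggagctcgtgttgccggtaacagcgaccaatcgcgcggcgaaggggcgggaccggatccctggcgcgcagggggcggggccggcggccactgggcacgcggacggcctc
Sat1, minus strand, chrX:155216450-155216699: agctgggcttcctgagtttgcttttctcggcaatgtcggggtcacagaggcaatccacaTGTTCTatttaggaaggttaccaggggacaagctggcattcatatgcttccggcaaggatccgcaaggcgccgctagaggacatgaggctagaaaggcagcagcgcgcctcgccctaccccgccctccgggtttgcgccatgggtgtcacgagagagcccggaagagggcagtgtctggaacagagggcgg
The Tsc22d3 and Sat1 windows each held 1 receptor hexamer, on the strand opposite to AGAACA. The Per1 window held 1 E-box and 1 D-box, and the Per3 window held 2 D-boxes. The other Tsc22d3 and Per1 windows, chrX:140542619-140542918, chrX:140548522-140548821 and chr11:69099902-69100201, held none of these letters, and no window held the palindrome. A match is a description of letters, not a site.

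Tsc22d3 was found in most of the rest cells and in few others. It reached 10 counts in 7 of the 9 (77.8%, exact 95% interval 40.0% to 97.2%), in 2 of 16 Sox11-class cells of dataset A (12.5%, 1.55% to 38.3%), in 5 of 25 of dataset B (20%, 6.83% to 40.7%), and in 2 of 30 Enpp2-rich cells (6.67%, 0.818% to 22.1%). Intervals cover counting error only and treat the cells of a dataset as independent draws. In counts per 1000000 of the cell's total (CPM), the 9 rest cells ran from 0 to 5302 with a median of 2797. The highest was E8 with 13852 counts, then C4 (3274 CPM), F4 (3230), H2 (3157), F3 (2797), E2 (2508) and C6 (1400). G1 had 7 counts and F12 had 0. The 7 cells lay between 1400 and 5302 CPM and stood apart from the other 2. As 10 counts or more in at least 6 of the 9 rest cells was met by 68 of 7599 rows (0.895%), 3 of the 5 genes, Tsc22d3, Sat1 and Per3, are among few. Because they were chosen on this contrast, nothing is read from that share.

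In the Sox11 class of dataset B, 20 of 25 cells had 0 counts, and the other 5 had 945 CPM (F2, plate P1), 1624 (H2, P1), 1673 (B6, P1), 1940 (E6, P3) and 3069 (H5, PL4). No cell lay between. These 5 cells held 11 to 18 neuroblast markers, 0 or 1 astroglial markers and no choroid plexus marker at 10 counts. They came from 3 of the 4 plates. E6 also held 3 of 12 microglia markers, against 0 in F2, H2, B6 and H5. In the Sox11 class of dataset A the positive wells were G7 (2188 CPM) and F7 (384 CPM), and G7 held 96.8% of that class's 6336 Tsc22d3 counts. Without G7, G9, H6 and E10, 1 of 13 Sox11-class cells of dataset A had the gene (7.69%, 0.195% to 36.0%). F7 also held 9 astroglial markers. In the Enpp2-rich class, H9 of plate P1 had 1010 counts and E9 of dataset A had 15, and the latter fell below 10 when all cells were thinned to 500000 counts. The 30 cells of that class otherwise held 1 count in all.

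**Figure D2:**
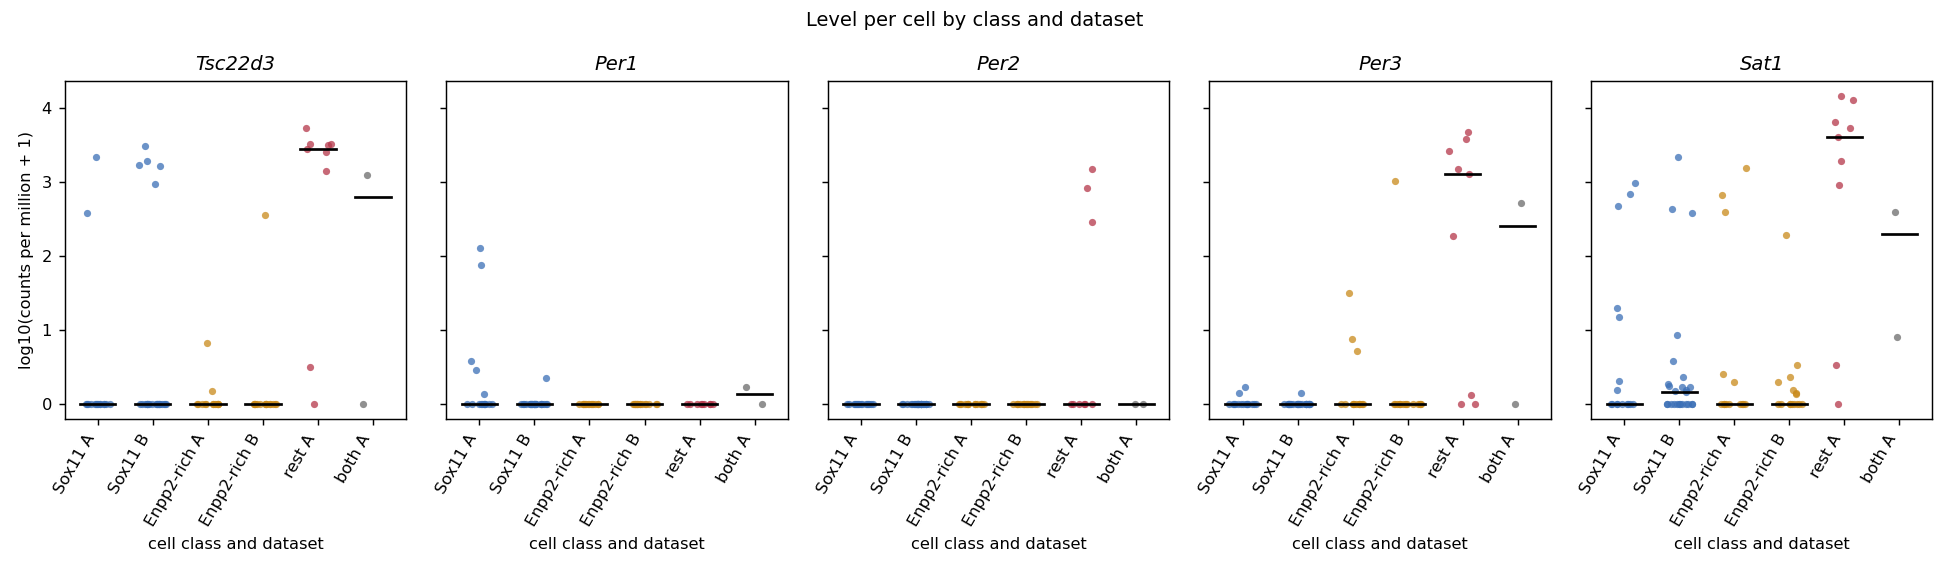
Level of each gene per cell (points, log10 of CPM + 1) by cell class and dataset, with the class median as a bar. Tsc22d3, Per3 and Sat1 have high medians in the 9 rest cells and medians at or near 0 in the Sox11 and Enpp2-rich classes.

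Of the period genes, Per1 was found at 10 or more counts in 3 cells, all Sox11-class wells of dataset A: G8 with 238 counts (125 CPM), G9 with 129 (74.7 CPM) and H6 with 11 (2.80 CPM). By markers, H6 held 12 and G9 10 of the 14 choroid plexus markers, against 7 to 12 in the Enpp2-rich cells of dataset A, and Ttr made up 78.2% of the counts of H6. G8 held 2. These are the wells with shared rows, and with G8 kept for them and G9, H6 and E10 left out, Per1 was in 1 of 79 cells (1.27%, 0.0320% to 6.85%). Another 4 cells had 1 to 3 counts. Per1 was at 0 in all 9 rest cells, which by the limit of 3 cells in n allows a share of up to 33.3%, and at 10 counts in 0 of 41 cells of dataset B, which allows up to 7.32% (the exact interval reaches 33.6% and 8.60%). None of the 17 cells with Tsc22d3 had Per1 at 10 counts.

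Per2, the partner of the cryptochromes in the repressor complex, was at 10 or more counts in 3 cells, all of the rest: E2 with 1521 counts (1494 CPM), H2 with 1746 (827 CPM) and C6 with 335 (288 CPM). It was at 0 counts in the other 79 cells, which includes all 41 of the Sox11 class (up to 7.32% by the same limit, 8.60% by the exact interval) and all 30 of the Enpp2-rich class (10.0% and 11.6%). Each of the 3 cells also had Per3, Tsc22d3 and Sat1.

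Per3, the period gene least required for rhythm, was the one most often found. It reached 10 counts in 6 of 9 rest cells (66.7%, 29.9% to 92.5%), with 4747 CPM in F3, 3783 in F4, 2632 in E8, 1513 in C6, 1263 in E2 and 187 in H2. C4 and F12 had 0 and G1 had 1 count. F6, which met both class rules, had 608 counts (512 CPM). None of 41 Sox11-class cells reached 10 counts, and 3 of them had 1 count each. In the Enpp2-rich class 4 of 30 cells passed (13.3%, 3.76% to 30.7%): B1 of plate PL4 had 2334 counts (1029 CPM), A8 had 234 (30.1 CPM), C12 had 16 and E9 had 11. After thinning, the 3 passing Enpp2-rich cells of dataset A became 1. Dataset B thus rests on B1, which holds 2334 of its 2335 Per3 counts.

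Sat1 reached 10 counts in 22 cells, the most of the 5 genes, and its highest levels were in the rest. There it passed in 7 of 9 cells (77.8%, 40.0% to 97.2%), with 14370 CPM in C6, 12703 in F3, 6477 in F4, 5354 in H2, 4002 in E2, 1890 in E8 and 898 in C4. G1 had 8 counts and F12 had 0. These are the same 7 cells that had Tsc22d3. The Sox11 class of dataset A had 5 passing wells of 16 (31.3%, 11% to 58.7%), and these were G7 (2747 counts), G8 (1288), G9 (818), H6 (55) and F7 (10). Without G9, H6 and E10 it was 3 of 14 (21.4%, 4.66% to 50.8%), and without G7 as well 2 of 13 (15.4%, 1.92% to 45.4%). Over all cells, 19 of 79 then had Sat1 (24.1%, 15.1% to 35%), with G7 kept. In dataset B, 4 of 25 Sox11-class cells passed (16%, 4.54% to 36.1%), with 2184 CPM in C10 of P3, 424 in A5 of P1, 383 in H5 of P2 and 7.60 in A4 of P2. A4 also held 10 microglia markers, whose summed level in that class reached at most 209 CPM. In the Enpp2-rich class 3 of 14 cells of dataset A (G4 at 1521 CPM, F9 at 668, B12 at 393) and 1 of 16 of dataset B (H9 of P1 at 188) passed. Sat1 also gave counts of 1 to 9 in 20 cells, against 2 cells for Tsc22d3, 4 for Per1, 0 for Per2 and 4 for Per3. With 1 count as the minimum, its share was 48.8% of the Sox11 class and 40.0% of the Enpp2-rich class.

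Over all cells, 11 had both Tsc22d3 and Sat1, which is 64.7% of the 17 with Tsc22d3 and 50% of the 22 with Sat1. Without G9, H6 and E10 it was 11 of 19 Sat1 cells (57.9%). In the rest, 7 of 7 had both. In the Sox11 class of dataset A, both wells with Tsc22d3, G7 and F7, had Sat1, and in dataset B the 5 cells with Tsc22d3 and the 4 with Sat1 had no cell in common. With so few cells of 25, the absence of an overlap is given as a count only. Tsc22d3 and Per3 were together in 8 cells, 47.1% of the Tsc22d3 cells and 72.7% of the 11 Per3 cells. All of Tsc22d3, Per3 and Sat1 were at 10 or more counts in 7 cells, 6 of the rest and F6.

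**Figure D3:**
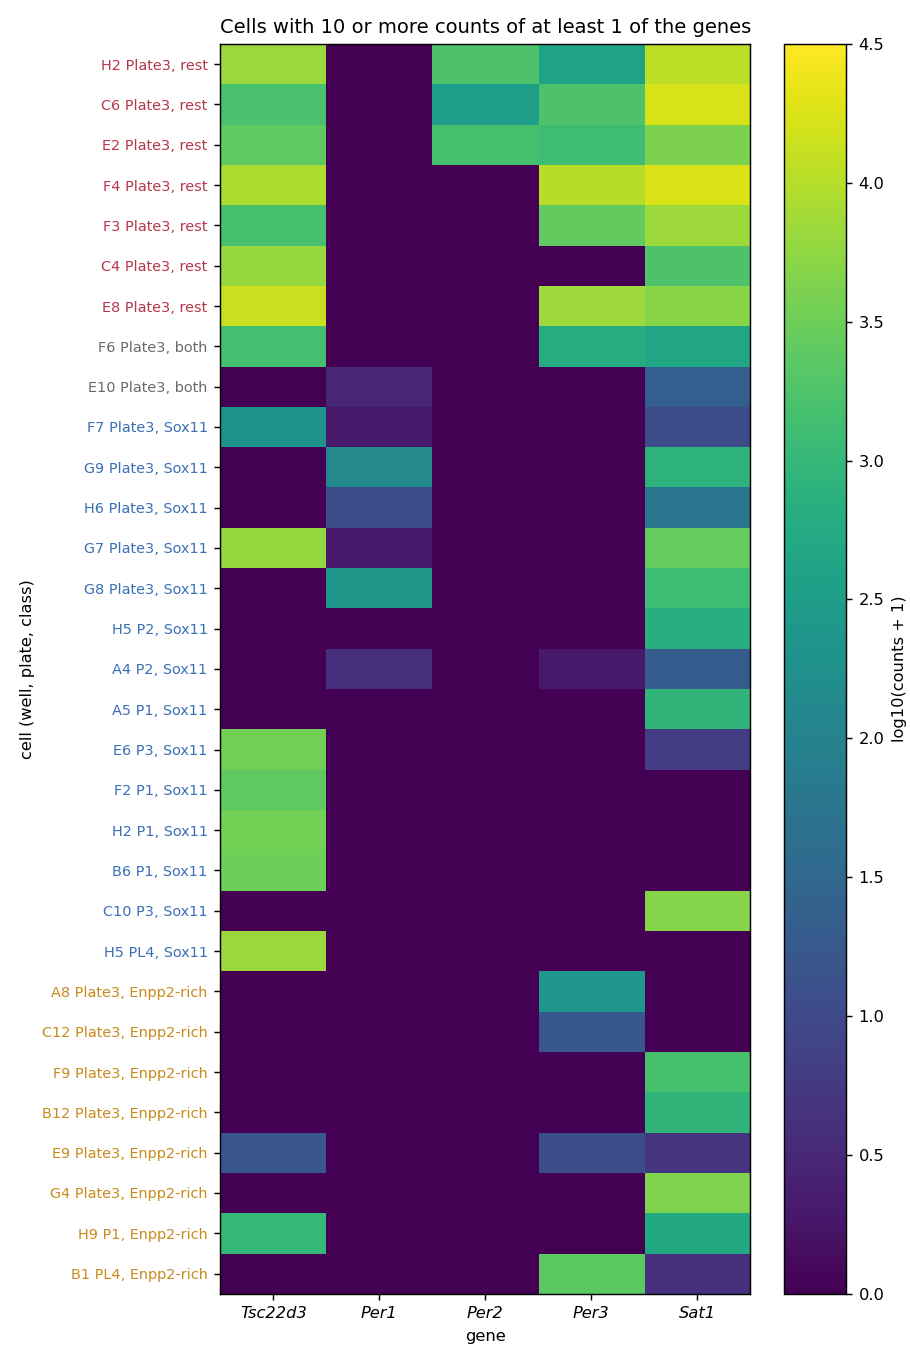
Counts of the 5 genes (columns, log10 of counts + 1 as colour) in the 31 cells with 10 or more counts of at least 1 of them (rows, named by well, plate and class). The upper rows, the rest cells and F6, hold Tsc22d3 and Sat1 together, while the Sox11-class rows of plates P1 to PL4 reach 10 counts of one or the other.

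The cells with all of Tsc22d3, Per3 and Sat1 were largely those with astroglial markers, which include Gja1, Slc1a3, Aqp4 and Gfap. Grouping cells by the number of these 17 markers at 10 or more counts was chosen after the values were seen. The 6 cells with 11 or more were C6, E2, F3, F4 and H2 of the rest and F6, all of dataset A. F6 also held 7 neuroblast and 7 choroid plexus markers and 3181 genes detected, against 1286 to 1537 genes in the other 5. Tsc22d3 was in 6 of 6 (54.1% to 100%) at 1235 to 3230 CPM, Per3 in 6 of 6 at 187 to 4747 CPM, and Sat1 in 6 of 6 at 386 to 14370 CPM. Per2 was in 3 of 6 and Per1 in 0 of 6. Without F6 the lowest levels were 1400 CPM for Tsc22d3, 187 for Per3 and 4002 for Sat1. Over all rows, 93 of 7599 (1.22%) were at 10 or more counts in each of the 6, and since the genes had been chosen on cells that include 5 of these, no inference is drawn. In the other 76 cells Tsc22d3 was in 11 (14.5%, 7.45% to 24.4%), Per3 in 5 (6.58%, 2.17% to 14.7%) and Sat1 in 16 (21.1%, 12.5% to 31.9%). The 76 include all 41 cells of dataset B, where these genes were in 6, 1 and 5 cells. Shares of the 76, here and below, thus mix the datasets. Penk, the gene that drives the Cre, had 16 counts in F6 and 0 in the other 5.

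The markers did not account for every high cell. E8 had 0 of the 17 astroglial markers at 10 counts, with 5302 CPM of Tsc22d3, 2632 of Per3 and 1890 of Sat1. C4 had 0 as well, with 3274 CPM of Tsc22d3 and 898 of Sat1, and 0 Per3 counts. Conversely, the 4 cells with 5 to 10 markers had Tsc22d3 in 1, Per3 in 0 and Sat1 in 2. Of the 14 cells with no marker, 4 had Tsc22d3, among them E8 and C4. Fewer transcripts per cell and loss of a transcript in amplification cannot be told apart for a gene at 0 in a single well.

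**Figure D4:**
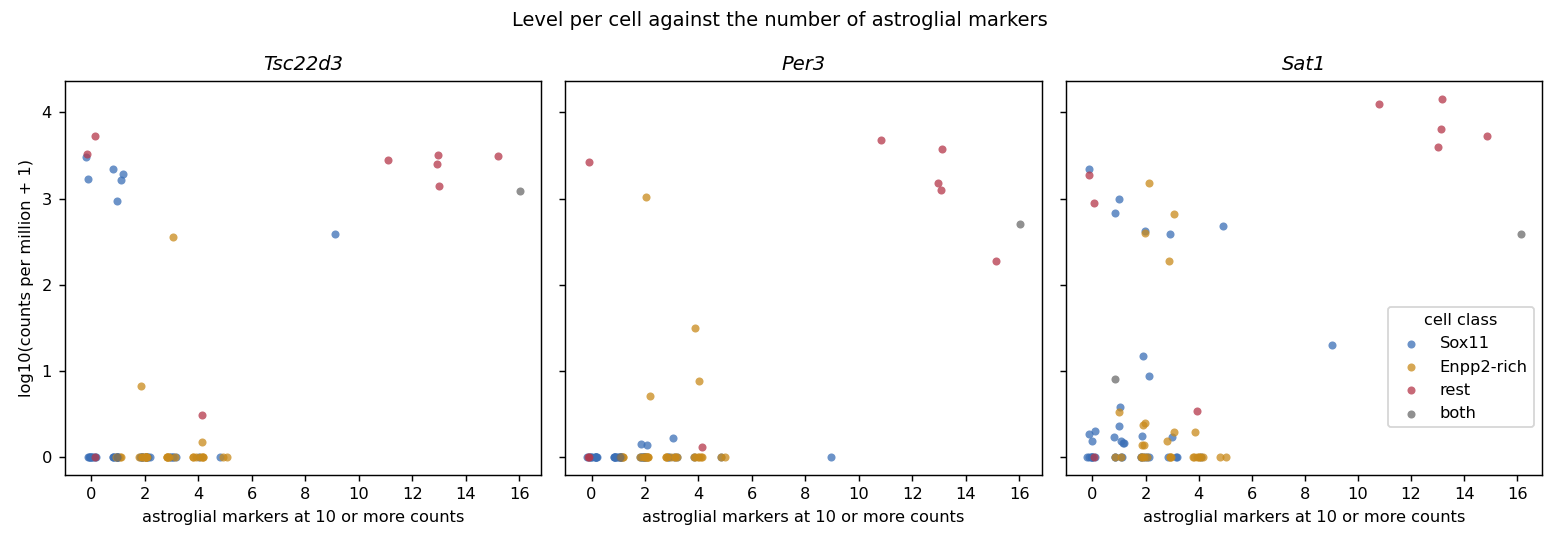
Level per cell (y axis, log10 of CPM + 1) of Tsc22d3, Per3 and Sat1 against the number of astroglial markers at 10 or more counts (x axis, of 17), coloured by cell class. The 6 cells at 11 or more markers have all of the genes, and other cells with high levels lie at 0 to 9 markers.

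The wider glucocorticoid response list held 20 genes, of which 14 were in the table and 7 reached 10 counts in at least 8 cells. In the 6 cells with 11 or more astroglial markers, 2 to 8 of its genes were present (median 4.5, or 32.1% of the 14; without F6, 2 to 5 with a median of 4), against a median of 1 (7.14%) in the other 76 cells. Over all rows of the table the medians were 7.45% and 6.95%. The clock list had medians of 3.5 and 1, the polyamine list 3.5 and 3, and the receptor and cofactor list 2 and 4. The grouping was chosen after the values were seen, so these are descriptions. Mt1, a metallothionein that binds zinc, was in 6 of 6 at 291 to 6483 CPM (291 to 2204 without F6) and in 18 of the other 76. Its neighbour Mt2 was in 5 of 6 and in 3 of 76. Nfkbia, the inhibitor of NF-kB, was in 3 of 6 and 13 of 76. Klf9, a receptor-induced transcription factor in 4 cells overall and named here after its values were seen, was in 3 of 6. Of the 14 genes, 4 reached 10 counts in no cell, and 3 of these had no count. They were Fkbp5, Ddit4, Errfi1 and Cebpd, also named after their values were seen. The kinase gene Sgk1 was in 13 of 30 Enpp2-rich cells, in 1 of the 6 (F6), and in 0 of 41 Sox11-class cells. Dusp1, a MAP kinase phosphatase, was in 0 of 6 and in 10 of 76, of which 7 were Sox11-class.

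Among receptor and chaperone genes, Nr3c1, the glucocorticoid receptor, reached 10 counts in 3 cells, E8 of the rest and 2 Enpp2-rich cells of dataset B, and in none of the 6 (named after its values were seen). Hsp90aa1, the inducible HSP90 that holds the receptor, was in 61 of 76 cells and in 1 of the 6, at up to 81.7 CPM. Hspa8, the constitutive HSP70, was in 69 of 76 and 3 of 6. Hsp90ab1, the constitutive HSP90, was in 60 of 76 and 4 of 6, at up to 1290 CPM. Hsd11b1, the enzyme that regenerates active glucocorticoid and also named after its values were seen, was in 0 of 76 and 2 of 6. Stip1, which bridges the HSP70 and HSP90 chaperones, was in 30 of 76 and 0 of 6. The coactivator Ncoa1 was in 4 of 6 and 9 of 76. Genes detected per cell had a median of 1298 in the rest, 1237.5 in the Enpp2-rich and 1699.5 in the Sox11 class of dataset A, and their part in these shares was not tested.

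The clock list held 24 symbols for 23 genes, since Arntl and Bmal1 are names of 1 gene. Of these, 19 were in the table and 6 reached 10 counts in at least 8 cells. Bhlhe41, a repressor that competes for E-boxes, was in 5 of 6 cells with 11 or more astroglial markers, at up to 1126 CPM, and in 7 of 76. Clock itself was in 2 of 6 and 6 of 76. Csnk1e, a kinase that marks period proteins for breakdown, was in 0 of 6 and in 14 of 76, of which 13 were Sox11-class. In the TSC22 family, Tsc22d4 was in 3 of 6 and 5 of 76, and Tsc22d1, the most common member, in 2 of 6 and 33 of 76. In the polyamine list, Smox, the oxidase that acts directly on spermine, was in 5 of 6 and 3 of 76, and Slc3a2, the heavy chain of amino acid transporters, in 5 of 6 and 20 of 76. The antizyme gene Oaz1 was in 2 of 6 and 51 of 76. Of the 21 immediate early genes, which report recent stimulation or dissociation, 15 were in the table and 2 of those had no count. None of the 15 reached 10 counts in 8 cells, and the 6 cells had 0 or 1 of them. Of the 31 list genes at 10 counts in at least 8 cells, the 13 not described by name here were each in 1 or 2 of the 6 and in 6 to 46 of the other 76.

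**Figure D5:**
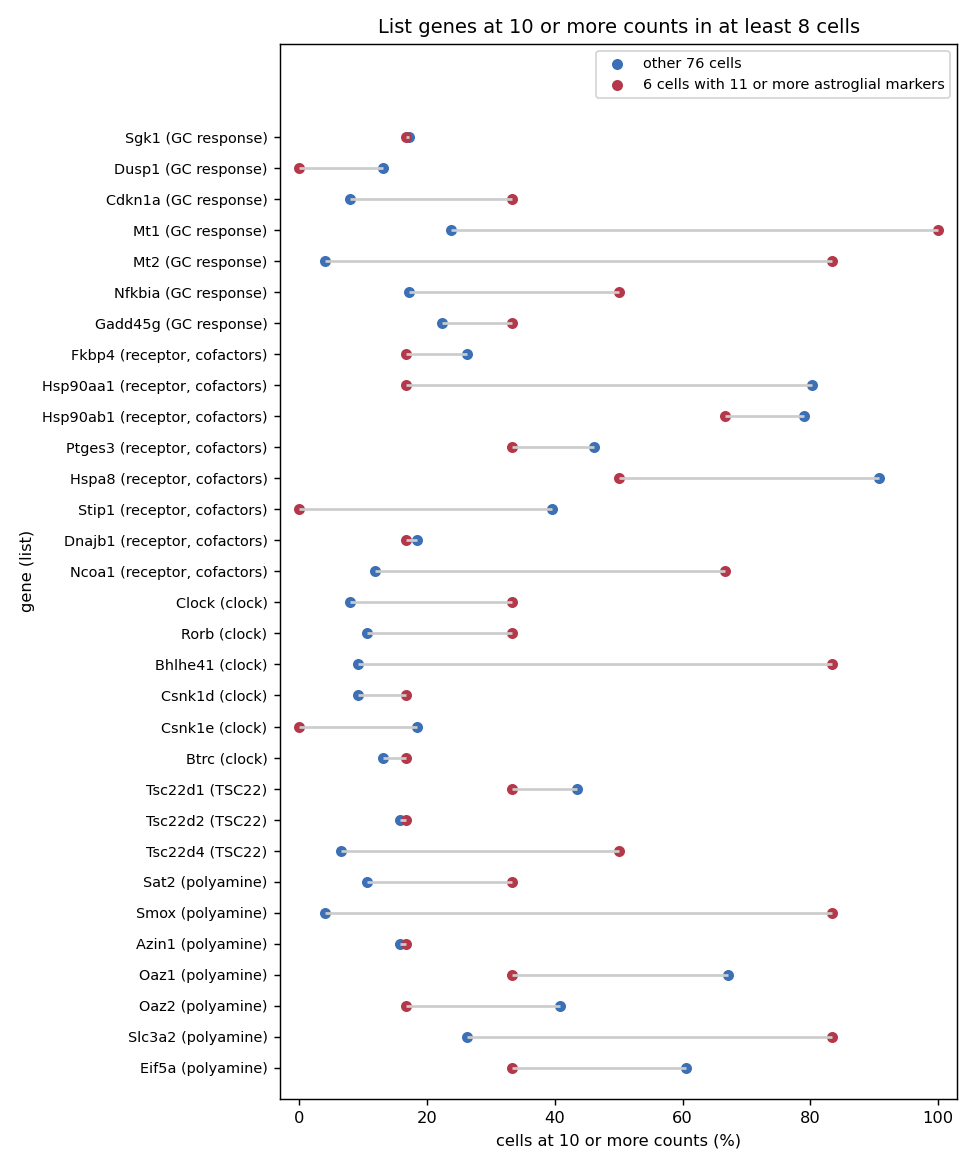
Share of cells at 10 or more counts (x axis, %) for the list genes present in at least 8 cells (y axis; GC, glucocorticoid), in the 6 cells with 11 or more astroglial markers (red) and the other 76 (blue). Mt1, Mt2, Bhlhe41, Smox and Slc3a2 were in at least 5 of the 6 cells, and Hsp90aa1 and Stip1 lie lower there than elsewhere.

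The list genes were tested between the Enpp2-rich and Sox11 classes on counts summed per class and dataset (2 pools a class). At an adjusted p under 0.05, edgeR called 61 of 10701 genes (0.57%), and 0 with the dataset as a block. The 61 were 7 higher and 54 lower in the Enpp2-rich class, a split that changed with the cells used: without wells G9, H6 and G7 it was 72 and 101, and without the Sox11 pool of dataset A 37 and 39. None of the tested genes of the 6 lists was called, with or without the block. Hsd11b1 of the receptor list and 113 genes in all, itself included, had no count in either class and entered through the pool of the rest, so they give no direction and are left out of the following counts. At an unadjusted p under 0.05 there were 2 of 10 glucocorticoid response genes, 1 of 10 receptor and cofactor genes, 2 of 18 clock genes, 0 of 3 TSC22 genes, 0 of 18 polyamine genes and 1 of 10 immediate early genes, against 1084 of 10588 genes. DESeq2 called 2, 1, 8, 1, 2 and 3 of them, among 2986 of 10439 genes overall. By direction, 6 of 10 response genes, 6 of 10 receptor genes, 9 of 18 clock genes, 0 of 3 TSC22 genes, 10 of 18 polyamine genes and 2 of 10 immediate early genes had higher fitted values in the Enpp2-rich class. That compares with 4080 of 10588 genes. Median log2 differences (Enpp2-rich minus Sox11) were 1.57, 0.21, -0.48, -0.50, 0.27 and -3.42 in that order, and -1.15 over the 10588 genes. With genes at 0 in 1 class set to the bound that 3 counts over the class allow, the list medians were the same to 2 decimals and that over all these genes was -1.10.

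Sgk1 came nearest to a call. Its pools had 404 and 348 CPM in the Enpp2-rich class of datasets A and B, and 0 and 0.136 CPM in the Sox11 class, so that both pools of one class lay above both of the other. The adjusted p was 0.0612 by edgeR. Without wells G9, H6 and G7 it was 0.0317, and over all settings it ran from 0.00057 with DESeq2 to 0.59 with the block. The comparison of the rest with the Sox11 class was not fitted, since dataset B held no rest cell.

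Genes with the most similar pattern were taken as the 5 highest Spearman correlations of log2(CPM + 1) over the 82 cells, among 1296 genes at 10 or more counts in at least 20 cells. The cells share plates and depth, so these are descriptions. For Tsc22d3 they were Sat1 (0.46), Ric1 (0.36), Sfxn5 (0.35), Id2 (0.34) and Malat1 (0.34). For Per3 they included Sfxn5 (0.44), Mt1 (0.40), Kcnk1 (0.40) and Cst3 (0.40). For Sat1, with Tsc22d3 outside the compared genes, they were Prnp (0.39), Mir99ahg (0.35), Kcnk1 (0.34), Angel2 (0.34) and Vps41 (0.33). Tsc22d3 correlated with Per3 at 0.46 and with the number of genes detected at 0.07, while Per1 correlated with the latter at 0.36.

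The datasets differ in more than the sort gate. Tsc22d3 was in 11 of 41 cells of dataset A (26.8%, 14.2% to 42.9%) and 6 of 41 of dataset B (14.6%, 5.57% to 29.2%), Per3 in 10 and 1, and Sat1 in 17 and 5. The rest cells and F6 account for 8 of the 11, 7 of the 10 and 8 of the 17 in dataset A. Within the Sox11 class, Tsc22d3 was in 2 of 16 and 5 of 25. Tsc22d3 (chrX:140539528-140600522) and Sat1 (chrX:155213126-155216449) are X-linked, while Per1 (chr11:69095108-69109965), Per2 (chr1:91415977-91459351) and Per3 (chr4:150997018-151044707) are autosomal, by the RefSeq annotation of GRCm38.p6. Xist, the RNA of the inactive X, reached 10 counts in 15 of 41 cells of dataset A and 0 of 41 of dataset B. The Y-linked Ddx3y did so in 0 and 13. With 1 gate per dataset, gate, plate and sex of the animals cannot be told apart, and the datasets were not tested against each other.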

How the data were processed

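The table the authors deposited holds raw counts, whole numbers whose totals differ between cells. Per the submitters' processing notes, FastQC 0.12.1, STAR 2.7.10b and featureCounts of Subread 2.1.1 were used, and GRCm39 and mm10 are named without a role. Per the labels' protocols, cDNA was made by template switching and preamplified, and no molecular identifier is mentioned, so PCR copies add to each count. The strand setting is not given in the sources used here. No cell had a count in 1997 of the 15305 rows. A deposited run list served for nothing here, and no cell was filtered out. No doublet caller was run.

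CPM are counts per 1000000 of a cell's total. Shares of cells carry exact Clopper-Pearson 95% intervals, and shares of 0 also the limit of 3 cells in n. Cells were not treated as replicates. Counts were summed per class and dataset into 5 pools, without the 2 cells that met both rules, and fitted together in edgeR 4.0.16 (quasi-likelihood test, filterByExpr, TMM, Benjamini-Hochberg adjustment, threshold 0.05, common dispersion 4.26). The script was tested on simulated data with a much smaller spread than these data. That run says nothing on missed or false calls here. Sox11 and Enpp2 define the classes, so their own difference is no result. Both class pools of a dataset share its gate and label, so by the labels the dataset pairs the pools. Their deviations from the class means correlated at 0.15 over 10701 genes. DESeq2 1.42.0 was an alternative, as were other scaling, filters, cutoffs and left-out cells or pools. Python 3.11.15 with pandas 2.3.3, numpy 2.4.6, scipy 1.17.1 and matplotlib 3.10.9, and R 4.3.3, ran the rest.

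The genes, the 6 pathway lists, the 8 marker lists and the class cutoffs were chosen with earlier results of these data known. The 5 genes are always named, list genes could be named where 10 counts were reached in at least 8 cells, and genes outside that rule are marked. Which of the 31 such genes were described was chosen with their values in view. The check for shared rows, the left-out wells G9, H6, E10 and G7, the grouping by astroglial markers and its repeat without F6 were added after seeing the data. Of the genes most like Per3, 1 is not reported here.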

Additional observations from a re-analysis of the deposited data

Results flagged for a closer look

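Over pooled counts, the difference of Sat1 between the classes had opposite signs in the 2 datasets. In dataset A it was at 180 CPM in the Enpp2-rich and 167 CPM in the Sox11 class, a difference of 12.9 CPM. In dataset B it was at 15.9 and 125 CPM, a difference of -109 CPM. The gap between these differences is 122 CPM. The sign in dataset A rests on single wells: without G4, which held 63.5% of the Enpp2-rich counts, it turned, to 71.1 against 167 CPM (-96.2 CPM). Without G7, the myeloid-led well with 55.8% of the Sox11-class counts, the difference was 98.5 CPM, and without G9 and H6, which share rows with G8, it was 9.86 CPM. With all cells, the share at 10 or more counts was lower in the Enpp2-rich than in the Sox11 class in both datasets. It was 21.4% against 31.3% in dataset A and 6.25% against 16% in dataset B. Without G9, H6 and E10 the Sox11-class share of dataset A was 21.4% as well, and without G7 too it was 15.4%. The order of the shares in dataset A thus depends on the cells used. Each difference in CPM rests on 1 pool per class, and the difference between datasets was not tested.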

How the results depend on the processing

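Shares of cells were recomputed under other settings (minimum count, depth, class cutoffs, left-out cells, single datasets). The settings reuse the same cells, the intervals are wide and 3 of the 15 shares were 0 throughout, so staying within an interval says little. Per1 in the Sox11 class ran from 0% to 18.8% (7.32% as reported), Tsc22d3 in the Enpp2-rich class from 3.33% to 10.0% (6.67%) and in the rest from 70.0% to 88.9% (77.8%). Most medians of CPM are 0, so their stability says nothing. Those of the rest moved: with the Sox11 cutoff at 100 counts, which makes the rest 11 cells, Per3 went from 1263 to 187 CPM, Sat1 from 4002 to 1890 and Tsc22d3 from 2797 to 2508. Without the cell with its highest level, F3 for Per3 and C6 for Sat1, they were 725 and 2946 CPM. With a minimum of 1 count, Sat1 moved to 48.8% of the Sox11 class and 40.0% of the Enpp2-rich class. Per1 reached 10 counts in no Sox11-class cell of dataset B, where 1 cell had 3 counts. The count of genes between the Enpp2-rich and Sox11 classes, 61, was the least stable value: 52 with RLE scaling, 332 without a filter on low counts (118 higher), 2986 with DESeq2 (737 higher), 173 without wells G9, H6 and G7 (72 higher), and 0 with the dataset as a replicate block. Leaving out each replicate pool gave 0 to 76 (76 without the Sox11 pool of dataset A, 37 of them higher), with 0 without the Sox11 pool of dataset B or without either Enpp2-rich pool. A lone pool is then assumed to vary like the others. The cause was not tested. The comparison of the rest with the Sox11 class and its alternatives were not run, as dataset B has no rest cell. With 9 rest cells of 1 plate, shares there are known only to within the wide intervals given.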
